A study of Homo sapiens with 40 samples.

Results

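The comparison described here set Kyse30 spheroids that received EGF together with cetuximab against Kyse30 spheroids kept in serum-free medium. It rests on the 4 libraries whose column names carry the Kyse30 line and the cetuximab treatment and the 4 that carry the Kyse30 line and the control treatment, 8 of the 40 libraries of the series. Kyse30 is an established line from an oesophageal squamous cell carcinoma, labelled wild type and in this study marked with Dendra2, a reporter whose emission shifts when it is photoconverted. The EGF+cetuximab spheroids were held in type I collagen with 9 nM EGF and 10 µg/mL cetuximab for 72 h, and the serum-free spheroids were held in the same matrix for the same time without added EGF or antibody. Per the labels, both groups were unselected, so neither was sorted by photoconversion into invasive and non-invasive cells. Spheroids were pooled, digested and passed through a cell sorter before 3′ mRNA sequencing. The groups differ in EGF and antibody at once, since every Kyse30 library with EGF alone belongs to a photoconverted fraction. A change between them is therefore a change with EGF and cetuximab together and cannot be divided between the agents.

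EGF binds the receptor EGFR, whose kinase feeds the RAS, RAF, MEK and ERK cascade and the PI3K and AKT pathway. ERK in turn raises immediate early transcription factors within minutes and then a delayed set of genes, among them phosphatases and adaptors that damp the pathway. Cetuximab is an antibody that occupies the outer part of EGFR and keeps ligand from binding, and it is used against squamous cancers of the head and neck. AZD6244 (selumetinib) blocks MEK further down. In squamous epithelium, EGFR activity is known to favour proliferation and migration over keratinocyte differentiation.

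The EGF+cetuximab libraries held 3456845 to 4295621 counted reads and the serum-free libraries 2538447 to 3271325. After every library was thinned to 2538447 reads, 12233 to 12350 of the 12655 listed genes were seen in the EGF+cetuximab libraries and 11601 to 12198 in the serum-free libraries, so the groups differed in genes seen at equal depth as well. EGF+cetuximab replicate 1 stood apart from its group, with a correlation of log2 CPM of 0.919 to 0.927 with the other EGF+cetuximab libraries, which correlated with each other at 0.956 to 0.968. The serum-free libraries were less alike by this measure and correlated with each other at 0.881 to 0.924. Differences in raw counts between library pairs, as chi-square per degree of freedom, ran the other way. They were 6.97 to 9.18 among serum-free libraries and 8.09 to 30.4 among EGF+cetuximab libraries, so which group was less alike depended on the measure. Epithelial markers were present, with CDH1 at 143 to 214 CPM and EPCAM at 217 to 280 CPM in the EGF+cetuximab libraries. Basal keratins were at or near 0: KRT5 did not exceed 0.63 CPM and KRT14 did not exceed 0.28 CPM in any of the 8 libraries. Of 10 fibroblast markers only COL1A1 and ACTA2 are listed in the table, and of 10 markers of blood and endothelium only CD68 and CDH5. COL1A1 lay at 4.42 to 5.34 CPM with EGF and cetuximab and 2.5 to 16.1 CPM in serum-free medium. CDH5 was higher, at 12.7 to 29.3 CPM with EGF and cetuximab and 16.1 to 34.2 CPM in serum-free medium. CD68 did not exceed 6.63 CPM and ACTA2 did not exceed 2.82 CPM in any of the 8 libraries. No tested marker of these lists was called, while ACTA2, KRT5 and KRT14 were not tested. The libraries are bulk samples, so fewer cells of a type and less RNA per cell cannot be told apart.

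Levels are CPM, the counts of a gene relative to the total of its library, scaled with TMM factors over all 40 libraries. A gene was called at a Benjamini-Hochberg adjusted p under 0.05 in edgeR's quasi-likelihood test on the deposited counts of the 8 libraries, and every adjusted p below comes from that test unless another comparison is named. Of 11216 genes tested, 648 (5.78%) were higher with EGF and cetuximab and 598 (5.33%) were lower, 11.1% in all. Each count of called members of a gene list below stands against these shares, unless another comparison is named. The median log2 fold change over all tested genes was -0.0036. All 4 EGF+cetuximab libraries lay above all 4 serum-free libraries for 11.9% of tested genes and below them for 7.07%. Without EGF+cetuximab replicate 1, 633 genes were higher and 673 lower. Without EGF+cetuximab replicate 2 only 397 were higher, without EGF+cetuximab replicate 4 only 390 were lower, and without serum-free replicate 3 the counts were 415 and 371. Fitted over all 20 Kyse30 libraries, among them an invasive EGF library of 463124 counts, 225 were higher and 150 lower; without that library these were 1053 and 775. In each of these fits every one of the 1246 called genes kept its direction. Of the 101 called genes described below, 32 were not called over all 20 libraries. The calls of CEACAM6, CLDN1, HLA-B, IER3, IFIT2, KRT13 and MUC16 were lost over the 19, and those of CEACAM6, KLF4 and SOX2 when the spread was estimated over the 12 unselected Kyse30 libraries.

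Genes of mitosis, the surface receptor IL1RL1, the calcium-binding protein CALB2 and the glutamate transporter SLC1A6 were among the genes that rose most with EGF and cetuximab. The xenobiotic-metabolising enzyme CYP1A1, the water and glycerol channel AQP3, the inhibitor of differentiation ID1 and the matrix protein TGFBI were among those that fell. IL1RL1, the receptor for interleukin-33, at chr2:102311563-102352356 (GRCh38), had 5.80, 19.5, 15.2 and 26.95 CPM in the EGF+cetuximab libraries, against 0.367, 0, 0 and 0 CPM in the serum-free libraries. It was seen once in the serum-free group, as a single read in replicate 1, and in every EGF+cetuximab library. The summed counts, 282 against 1, give a ratio of 185 with a 95% counting interval of 32.96 to 7337, and the call had an adjusted p of 4.74e-05. SLC1A6 had 8.84, 41.8, 26.4 and 56.2 CPM in the EGF+cetuximab libraries, against 1.10, 0, 0 and 0 CPM in the serum-free libraries. Its 556 against 3 reads give a ratio of 122 (95% counting interval 41.4 to 592, adjusted p = 0.000102). In both genes EGF+cetuximab replicate 1 was the lowest of its group. It lay above every serum-free library, but freedom from overlap was a condition for a place among the leading genes. SLC1A6 was not called by limma.

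CALB2, encoding calretinin, had 67.98, 124, 161 and 184 CPM in the EGF+cetuximab libraries, against 12.5, 11.7, 26.03 and 21.3 CPM in the serum-free libraries. The log2 fold change was 2.86 ± 0.33 (SE), adjusted p = 6.92e-05, and freedom from overlap between groups was a condition for naming the gene. LGALS1, encoding the secreted lectin galectin-1, had 13.5, 50.4, 33.6 and 59.8 CPM in the EGF+cetuximab libraries, against 2.57, 3.47, 4.27 and 0.835 CPM in the serum-free libraries, with a log2 fold change of 3.73 ± 0.49 (SE), adjusted p = 8.89e-05. Here too EGF+cetuximab replicate 1 was the lowest of its group, and limma did not call the gene. KCNMB4, an accessory subunit of a calcium-activated potassium channel, had 29.8, 25.3, 25.1 and 14.1 CPM in the EGF+cetuximab libraries, against 1.47, 0, 3.88 and 0 CPM in the serum-free libraries. Its log2 fold change was 4.07 ± 0.67 (SE), adjusted p = 0.000769, and replicate 1 was the highest of the EGF+cetuximab libraries. AKAP12, a scaffold protein that anchors protein kinase A, had 500.2, 349.6, 340.2 and 348 CPM in the EGF+cetuximab libraries, against 51.3, 127, 66.8 and 60.5 CPM in the serum-free libraries, a log2 fold change of 2.26 ± 0.25 (SE), adjusted p = 4.07e-05.

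CYP1A1, at chr15:74719542-74725528, detoxifies aromatic compounds and is the classical target of the aryl hydrocarbon receptor. It had 107, 82.7, 137 and 43.9 CPM in the EGF+cetuximab libraries, against 1127, 1206, 1114 and 1170.2 CPM in the serum-free libraries, so that the highest EGF+cetuximab library lay well under the lowest serum-free library. The log2 fold change was -3.70 ± 0.27 (SE), adjusted p = 2.10e-06. AQP3 had 1.38, 0.929, 0.211 and 0.257 CPM in the EGF+cetuximab libraries, against 23.1, 23.01, 40.4 and 9.18 CPM in the serum-free libraries. Every EGF+cetuximab library was near the limit of detection, and the log2 fold change was -5.14 ± 0.59 (SE), adjusted p = 2.53e-05. ALPP, a placental alkaline phosphatase whose reads may be shared with its near-identical paralogues, had 6.08, 3.72, 3.59 and 0.770 CPM with EGF and cetuximab and 41.8, 29.00, 56.3 and 17.5 CPM in serum-free medium, a log2 fold change of -3.41 ± 0.46 (SE), adjusted p = 0.000119. HPSE, the heparan sulphate cleaving enzyme heparanase, lay at 1.63 to 2.82 CPM with EGF and cetuximab and 7.93 to 21.4 CPM in serum-free medium, a log2 fold change of -3.00 ± 0.48 (SE), adjusted p = 0.000523. ATP6V1B1, a subunit of the proton pump of vesicles and of acid-secreting cells, lay at 7.44 to 9.95 CPM with EGF and cetuximab and 43.00 to 54.2 CPM in serum-free medium, a log2 fold change of -2.60 ± 0.26 (SE), adjusted p = 4.79e-06. ATP12A, another proton pump, lay at 1.93 to 4.36 CPM with EGF and cetuximab and 14.8 to 24.2 CPM in serum-free medium and changed by -2.56 log2 units (adjusted p = 0.000566). The γ-secretase subunit NCSTN lay at 0.276 to 3.95 CPM with EGF and cetuximab and 4.17 to 27.1 CPM in serum-free medium (log2 fold change -3.01, adjusted p = 0.00394). TRPT1, a tRNA phosphotransferase, lay at 0.83 to 3.72 CPM with EGF and cetuximab and 10.02 to 27.97 CPM in serum-free medium (log2 fold change -3.24, adjusted p = 0.000314). These decreases were called without each library in turn. No overlap between groups was a condition for naming these genes. All 4 EGF+cetuximab libraries lay below all 4 serum-free libraries for 7.07% of all tested genes.

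**Figure D1:**
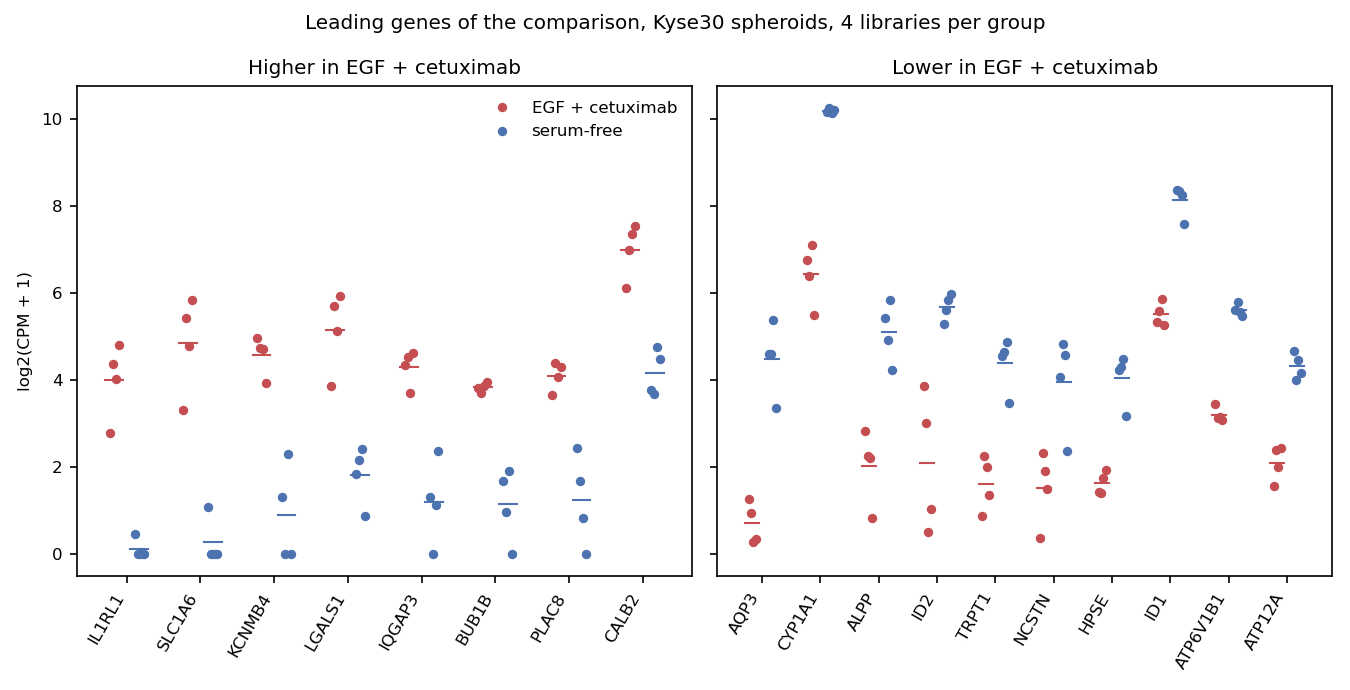
Levels of leading genes in the 8 Kyse30 libraries on the log2(CPM + 1) scale, genes higher with EGF and cetuximab in the left panel and lower ones in the right panel. Each point is 1 library, EGF+cetuximab left of serum-free, and bars are means. CALB2 lay at 67.98 to 184 CPM with EGF and cetuximab and at 11.7 to 26.03 CPM in serum-free medium, while CYP1A1 lay at 43.9 to 137 CPM and 1114 to 1206 CPM.

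The receptor and its family changed in part. Of the 10 tested receptors and ligands of the EGFR family, 1 was higher and 2 were lower, against 5.78% and 5.33% of all tested genes. EGFR, at chr7:55019017-55211628, had 2022, 2018, 2709 and 1793 CPM in the EGF+cetuximab libraries, against 3373, 3517, 3547 and 3418 CPM in the serum-free libraries. All EGF+cetuximab libraries lay below all serum-free libraries, and the log2 fold change was -0.76 ± 0.14 (SE), adjusted p = 0.00194. ERBB3, a receptor with little kinase activity of its own that pairs with other family members, was lower too and lay at 125 to 185 CPM with EGF and cetuximab and 233 to 258 CPM in serum-free medium, a log2 fold change of -0.64 ± 0.15 (SE), adjusted p = 0.0126. Among the ligands, TGFA was the member called higher, at 58.01 to 79.3 CPM with EGF and cetuximab and 32.6 to 48.5 CPM in serum-free medium (log2 fold change 0.73, adjusted p = 0.0282). That call was lost without EGF+cetuximab replicate 2 or 3, or without serum-free replicate 1 or 4, with a highest adjusted p of 0.0868. AREG, amphiregulin, had 355, 795, 265 and 329 CPM in the EGF+cetuximab libraries, against 302, 288, 265 and 264 CPM in the serum-free libraries. The groups overlapped, EGF+cetuximab replicate 2 alone was far above the rest, and the log2 fold change of 0.58 ± 0.29 (SE), adjusted p = 0.229 did not pass. EREG, epiregulin, had 78.8, 182, 48.96 and 58.8 CPM in the EGF+cetuximab libraries, against 61.6, 34.04, 55.5 and 49.7 CPM in the serum-free libraries, with the same library highest (log2 fold change 0.82, adjusted p = 0.191).

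Of 12 tested genes that turn EGFR signalling down or sort the receptor for destruction, 2 were higher and 1 was lower. ERRFI1 (MIG6), an inhibitor of the EGFR kinase that the pathway itself induces, lay at 37.99 to 79.2 CPM with EGF and cetuximab and 16.4 to 28.6 CPM in serum-free medium, a log2 fold change of 1.32 ± 0.26 (SE), adjusted p = 0.00344. SH3KBP1 (CIN85), an adaptor in receptor endocytosis, had 83.2, 101, 101 and 98.8 CPM in the EGF+cetuximab libraries, against 28.97, 29.00, 36.5 and 23.4 CPM in the serum-free libraries, a log2 fold change of 1.64 ± 0.20 (SE), adjusted p = 4.17e-05. CBLB, a ubiquitin ligase that marks active receptors, went the other way, at 19.5 to 30.3 CPM with EGF and cetuximab and 51.3 to 72.2 CPM in serum-free medium (log2 fold change -1.34, adjusted p = 0.00108). These calls were kept without each library in turn.

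Among 21 tested genes known as outputs or brakes of ERK, 5 were higher and none was lower, with a median log2 fold change of 0.26. The higher count ranged from 2 (without serum-free replicate 1) to 6 when single libraries were left out, with 3 without EGF+cetuximab replicate 2 or serum-free replicate 3 or 4. ETV5, an ETS factor that follows ERK activity, had 28.5, 42.3, 45.6 and 36.2 CPM in the EGF+cetuximab libraries, against 12.1, 13.2, 10.1 and 3.76 CPM in the serum-free libraries, and its log2 fold change of 1.88 ± 0.34 (SE), adjusted p = 0.00139 was the clearest of the list. ETV4, a close relative, had 152, 75.5, 86.95 and 86.8 CPM in the EGF+cetuximab libraries, against 56.8, 60.5, 53.6 and 56.4 CPM in the serum-free libraries. EGF+cetuximab replicate 1 was the highest, and the log2 fold change of 0.75 ± 0.21 (SE), adjusted p = 0.0269 was no longer called without that library or without serum-free replicate 1, 3 or 4 (highest adjusted p 0.0766). DUSP6, a phosphatase that inactivates ERK and serves as a readout of its activity, had 50.8, 97.1, 114 and 221 CPM in the EGF+cetuximab libraries, against 44.01, 47.9, 37.3 and 59.3 CPM in the serum-free libraries. Here replicate 1 was the lowest EGF+cetuximab library and fell within the serum-free range, and the log2 fold change of 1.303 ± 0.37 (SE), adjusted p = 0.0432 was called without that library but not without any other one (highest adjusted p 0.112), nor by limma. IER3, a survival factor, lay at 551 to 967 CPM with EGF and cetuximab and 417 to 511 CPM in serum-free medium (log2 fold change 0.71, adjusted p = 0.00968). PHLDA2, a growth-restraining pleckstrin homology protein, lay at 25.3 to 68.99 CPM with EGF and cetuximab and 11.003 to 23.6 CPM in serum-free medium, and its log2 fold change of 1.21 (adjusted p = 0.0173) was not called without EGF+cetuximab replicate 2 or serum-free replicate 1 (highest adjusted p 0.0830). PHLDA1 did not pass, with 209, 426, 379 and 422 CPM with EGF and cetuximab and 289, 283, 313 and 299 CPM in serum-free medium (log2 fold change 0.22, adjusted p = 0.494). Replicate 1 was the only EGF+cetuximab library below the serum-free range, and without it PHLDA1 was called. SPRY4, a Sprouty inhibitor of the cascade, was low throughout, at 6.42 to 9.67 CPM with EGF and cetuximab and 2.84 to 8.93 CPM in serum-free medium, and overlapped between groups (adjusted p = 0.788).

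Immediate early factors were lower where they were called. Of 20 tested members, 8 were lower and none was higher, with a median log2 fold change of -0.69; 8 to 10 were lower when any single library was left out. The immediate early gene that led the list was EGR1, a zinc finger factor whose upstream sequence is known for sites of serum response factor. The 150 bases before its start, taken from RefSeq (GRCh38.p14, chr5:138465329-138465478, plus strand), are shown because 2 matches to the CArG box, the core of such sites, lie there in capitals.
EGR1: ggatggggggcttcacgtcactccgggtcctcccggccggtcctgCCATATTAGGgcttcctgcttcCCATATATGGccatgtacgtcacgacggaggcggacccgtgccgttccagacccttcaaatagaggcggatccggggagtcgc
A CArG box was searched on both strands of the 250 bases before each gene's start. It was found in 1.14% of 27305 RefSeq promoters, in 0.98% of 8875 tested genes with an entry and in 1 of 16 tested immediate early genes with an entry, which was EGR1. EGR1 had 258, 150.3, 100.2 and 129 CPM in the EGF+cetuximab libraries, against 649, 569.6, 639.8 and 575 CPM in the serum-free libraries, a log2 fold change of -2.00 ± 0.22 (SE), adjusted p = 2.96e-05. The groups were far apart, and replicate 1 was the highest EGF+cetuximab library. FOS, the AP-1 subunit, had 160.3, 183, 79.4 and 141 CPM in the EGF+cetuximab libraries, against 387, 271, 459 and 263 CPM in the serum-free libraries, a log2 fold change of -1.36 ± 0.24 (SE), adjusted p = 0.00184. IER2, a small nuclear protein of the same early class, lay at 211 to 229.7 CPM with EGF and cetuximab and 368 to 516 CPM in serum-free medium (log2 fold change -1.01, adjusted p = 0.000204). KLF4, which also drives keratinocyte differentiation, lay at 26.4 to 56.4 CPM with EGF and cetuximab and 75.6 to 121 CPM in serum-free medium (log2 fold change -1.53, adjusted p = 0.000534). All of these calls were kept without each library in turn.

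Genes of G2 phase and mitosis had the largest share of called members among the 44 gene lists. Of 25 tested members, 21 were higher with EGF and cetuximab and none was lower, set against 5.78% of all tested genes called higher. All 4 EGF+cetuximab libraries lay above all 4 serum-free libraries for 22 members, set against 11.9% of all tested genes. The median log2 fold change was 1.68, and 17 to 23 members were higher when single libraries were left out. Promoters of this class are known for a cell cycle homology region (CHR) beside CCAAT boxes, the sites of the DREAM and MuvB complexes and of NF-Y. In the 250 bases before the start, TTTGAA, the core of the CHR, was found on either strand in 11 of 20 members with a RefSeq entry (55%), against 8.18% of 8875 tested genes and 13.6% of the 27305 RefSeq promoters. CCAAT was found in 17 of the 20 (85%), against 35.6% of the tested genes, and both motifs together in 9 (45%), against 3.41%. A match is a string of letters, not a measured site. Below are the 150 bases before the start of 4 members, picked after their values were seen because both motifs lie in them (RefSeq, GRCh38.p14), with CHR and CCAAT matches of either strand in capitals and some of them overlapping. They lie at chr16:23678739-23678888 and chr10:92592980-92593129 (plus strand), chr10:128126424-128126573 (minus strand) and chr5:163460482-163460631 (plus strand).
PLK1: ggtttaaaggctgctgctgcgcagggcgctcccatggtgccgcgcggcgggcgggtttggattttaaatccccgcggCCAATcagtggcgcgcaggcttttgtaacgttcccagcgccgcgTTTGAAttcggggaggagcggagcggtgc
KIF11: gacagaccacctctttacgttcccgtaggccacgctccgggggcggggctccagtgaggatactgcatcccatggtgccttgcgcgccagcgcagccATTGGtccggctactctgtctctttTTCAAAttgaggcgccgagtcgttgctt
MKI67: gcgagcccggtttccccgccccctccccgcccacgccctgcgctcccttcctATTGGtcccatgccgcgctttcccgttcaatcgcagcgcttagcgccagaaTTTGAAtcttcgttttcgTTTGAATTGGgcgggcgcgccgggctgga
HMMR: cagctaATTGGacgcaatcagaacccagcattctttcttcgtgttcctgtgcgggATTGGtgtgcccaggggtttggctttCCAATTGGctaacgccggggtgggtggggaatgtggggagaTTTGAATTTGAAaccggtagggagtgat

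In each of these 4 sequences a CCAAT match lies upstream of the CHR match closest to the start. PLK1, the kinase that drives entry into and passage through mitosis, had 16.3, 27.2, 19.2 and 13.6 CPM in the EGF+cetuximab libraries, against 5.13, 0.630, 6.60 and 1.25 CPM in the serum-free libraries, a log2 fold change of 2.43 ± 0.54 (SE), adjusted p = 0.00694. KIF11, the motor that separates the spindle poles, had 63.3, 39.5, 38.8 and 27.5 CPM in the EGF+cetuximab libraries, against 18.7, 9.46, 9.32 and 4.17 CPM in the serum-free libraries, a log2 fold change of 1.94 ± 0.37 (SE), adjusted p = 0.00217. Both genes were low in serum-free medium and above that range in every EGF+cetuximab library. MKI67, which encodes the proliferation antigen Ki-67, had 230.5, 226, 184 and 189 CPM in the EGF+cetuximab libraries, against 46.9, 43.8, 52.1 and 106 CPM in the serum-free libraries. Serum-free replicate 4 stood above the other serum-free libraries and below every EGF+cetuximab library, and the log2 fold change was 1.68 ± 0.24 (SE), adjusted p = 0.000198. HMMR, a spindle and hyaluronan-binding protein, lay at 21.6 to 43.4 CPM with EGF and cetuximab and 4.17 to 13.9 CPM in serum-free medium (log2 fold change 1.66, adjusted p = 0.00543).

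By the rule for naming list members, CENPF, TOP2A, TPX2 and PTTG1 led the class. CENPF, a kinetochore protein, had 264, 301, 247 and 306 CPM in the EGF+cetuximab libraries, against 54.3, 62.1, 71.5 and 81.8 CPM in the serum-free libraries, a log2 fold change of 1.99 ± 0.17 (SE), adjusted p = 6.51e-07. TOP2A, the topoisomerase that untangles chromosomes, had 554, 499, 423 and 420.2 CPM in the EGF+cetuximab libraries, against 129.8, 74.7, 83.9 and 121 CPM in the serum-free libraries, a log2 fold change of 2.15 ± 0.18 (SE), adjusted p = 6.51e-07. TPX2, which activates the spindle kinase Aurora A, changed by 2.09 log2 units (adjusted p = 3.26e-06) and PTTG1, securin, by 2.16 (adjusted p = 2.02e-05). The spread within each group was small beside the difference in all 4. BUB1B and IQGAP3 were among the leading increases over all genes. BUB1B, a spindle checkpoint kinase, lay at 11.8 to 14.4 CPM with EGF and cetuximab and 0 to 2.72 CPM in serum-free medium (log2 fold change 3.07, adjusted p = 0.00336), and IQGAP3, a scaffold protein of dividing cells, lay at 12.03 to 23.6 CPM with EGF and cetuximab and 0 to 4.17 CPM in serum-free medium (log2 fold change 3.47, adjusted p = 0.00116).

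Of 25 tested genes of DNA replication, 5 were higher and none lower (4 to 7 without single libraries), with a median log2 fold change of 0.75. MCM4, a subunit of the replicative helicase, had 332.5, 244, 199 and 204 CPM in the EGF+cetuximab libraries, against 130.2, 122, 128 and 117 CPM in the serum-free libraries, a log2 fold change of 0.91 ± 0.17 (SE), adjusted p = 0.00196. CDC6 and CDT1, which load that helicase onto origins, changed by 1.66 (adjusted p = 0.00389) and 1.63 (adjusted p = 0.00470), and RRM2, the ribonucleotide reductase subunit, by 1.50 (adjusted p = 0.00972). TTTGAA was found upstream of 1 of the 21 replication genes with an entry and CCAAT upstream of 13 (61.9%).

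**Figure D2:**
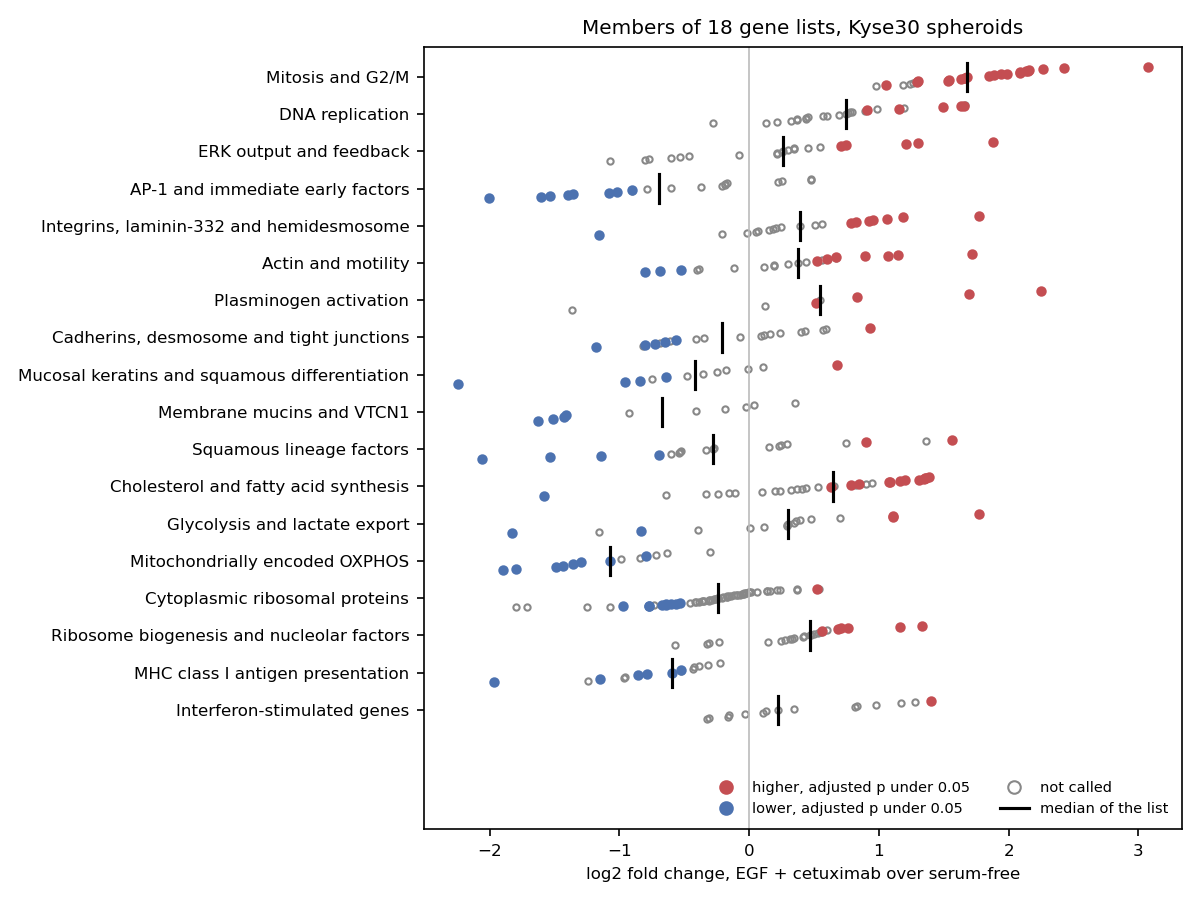
Log2 fold change, EGF+cetuximab over serum-free, of every tested member of 18 gene lists; each point is 1 gene, filled where the adjusted p was under 0.05, and black bars are medians. The 25 genes of mitosis and G2/M all lie above 0 with a median of 1.68, and the 20 immediate early factors have a median of -0.69.

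Integrins, laminin and the hemidesmosome fix epithelial cells to the basement membrane. Of 19 tested integrin, laminin and hemidesmosome genes, 7 were higher and 1 was lower, and the median log2 fold change was 0.39; the higher count was 7 or 8 without each library in turn. COL17A1, the transmembrane collagen of the hemidesmosome, had 373, 512, 287 and 648 CPM in the EGF+cetuximab libraries, against 138, 120.1, 103 and 149 CPM in the serum-free libraries, a log2 fold change of 1.78 ± 0.22 (SE), adjusted p = 7.02e-05. DST, the plakin that ties the hemidesmosome to keratin, lay at 585 to 919 CPM with EGF and cetuximab and 269 to 352 CPM in serum-free medium (log2 fold change 1.19, adjusted p = 8.89e-05). ITGA6, the α6 chain of the laminin receptor of that junction, had 504, 611, 428 and 585 CPM in the EGF+cetuximab libraries, against 295, 256, 272 and 226 CPM in the serum-free libraries, a log2 fold change of 0.96 ± 0.15 (SE), adjusted p = 0.000517. ITGA2, the α2 chain of a collagen receptor, had 255, 330.1, 474 and 419 CPM in the EGF+cetuximab libraries, against 162, 185, 169 and 162 CPM in the serum-free libraries, a log2 fold change of 1.06 ± 0.18 (SE), adjusted p = 0.000807. LAMB3, the β3 chain of an epithelial laminin, was the member that fell: it lay at 72.4 to 124 CPM with EGF and cetuximab and 204 to 222 CPM in serum-free medium, a log2 fold change of -1.16 ± 0.18 (SE), adjusted p = 0.000404. All of these groups were free of overlap.

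The actin list was mixed in direction. Of 21 tested members, 7 were higher and 3 lower (4 to 8 higher without single libraries, the lowest without serum-free replicate 1 or 3). FSCN1, the bundling protein of filopodia, had 143, 218, 156 and 198 CPM in the EGF+cetuximab libraries, against 53.9, 48.5, 51.3 and 54.3 CPM in the serum-free libraries, a log2 fold change of 1.72 ± 0.18 (SE), adjusted p = 7.88e-06. FLNA, a filamin that crosslinks actin, lay at 124 to 226 CPM with EGF and cetuximab and 58.6 to 111 CPM in serum-free medium (log2 fold change 1.07, adjusted p = 0.00284). TAGLN2, transgelin-2, rose by 1.15 log2 units (adjusted p = 0.00257) and ACTN1, α-actinin-1, changed by -0.69 (adjusted p = 0.00714). Of 16 tested genes of partial epithelial-mesenchymal transition, 3 were higher, SERPINE2 among them, and 2 were lower, TGFBI and LAMB3 (median log2 fold change 0.13).

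Of 7 tested genes of plasminogen activation, 4 were higher and none lower (2 to 4 without single libraries, 2 without serum-free replicate 3). SERPINE2, an inhibitor of thrombin and of plasminogen activators, had 142, 149, 159 and 77.3 CPM in the EGF+cetuximab libraries, against 31.5, 52.3, 40.4 and 30.9 CPM in the serum-free libraries, a log2 fold change of 1.70 ± 0.23 (SE), adjusted p = 0.000144. PLAT, the tissue plasminogen activator, lay at 19.8 to 99.2 CPM with EGF and cetuximab and 5.05 to 20.04 CPM in serum-free medium (log2 fold change 2.25, adjusted p = 0.00817), a call that limma did not make. ANXA2, part of a cell surface plasminogen receptor, changed by 0.83 log2 units (adjusted p = 0.0101), and its call was lost without serum-free replicate 3 (adjusted p = 0.0508). MMP1, the collagenase of fibrillar collagen, was at the edge of detection, with 3 reads in all EGF+cetuximab libraries and 7 in all serum-free libraries, a ratio of 0.281 (95% counting interval 0.0469 to 1.23). INHBA, the activin A subunit, had 40 and 1 reads, a ratio of 26.3 (95% counting interval 4.45 to 1063). Both genes fell under the filter on low counts and were not tested.

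At cell junctions, 1 of 20 tested genes was higher and 5 were lower, against 5.78% and 5.33% of all tested genes. Without single libraries 2 to 4 were lower. The lower count was 2 without EGF+cetuximab replicate 2 or serum-free replicate 3 and 3 without serum-free replicate 2 or 4, and the higher count was 2 without EGF+cetuximab replicate 3. The claudins, which seal tight junctions, split. CLDN1 had 405, 601, 491 and 627 CPM in the EGF+cetuximab libraries, against 300.4, 262, 242 and 266 CPM in the serum-free libraries, a log2 fold change of 0.93 ± 0.16 (SE), adjusted p = 0.000954. CLDN4 had 877, 915, 663 and 572 CPM in the EGF+cetuximab libraries, against 1095, 1138, 1118 and 1191 CPM in the serum-free libraries, a log2 fold change of -0.65 ± 0.15 (SE), adjusted p = 0.00955, and CLDN7 changed by -0.72 log2 units (adjusted p = 0.00685).

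The list of activin, BMP and SMAD response genes was mixed, with 2 higher and 3 lower of 17 tested members, against 5.78% and 5.33% of all tested genes. The higher count was 1 without EGF+cetuximab replicate 1 or 4 or serum-free replicate 1, 2 or 3, and the lower count was 2 or 3 without single libraries. The lower members were ID1, ID2 and ID3, which encode proteins that bind basic helix-loop-helix factors and are classical BMP targets. ID4, the other ID gene, had a log2 fold change of -0.80 and did not pass (adjusted p = 0.442). ID1 had 38.97, 47.2, 56.8 and 37.2 CPM in the EGF+cetuximab libraries, against 328, 323, 301 and 191 CPM in the serum-free libraries, a log2 fold change of -2.73 ± 0.20 (SE), adjusted p = 1.05e-07. ID2 lay at 0.422 to 13.5 CPM with EGF and cetuximab and 38.1 to 61.8 CPM in serum-free medium and ID3 at 13.5 to 71.5 CPM with EGF and cetuximab and 116 to 162 CPM in serum-free medium, with log2 fold changes of -3.30 (adjusted p = 0.0186) and -2.01 (adjusted p = 0.0141). The ID2 call was lost without EGF+cetuximab replicate 2 (adjusted p = 0.0603) and the ID3 call without EGF+cetuximab replicate 3 or 4 (highest adjusted p 0.0665), while ID1 was called in every such fit. On the list of partial epithelial-mesenchymal transition, TGFBI, a matrix protein named for its induction by TGF-β, had 222, 194, 229 and 254 CPM in the EGF+cetuximab libraries, against 816, 979, 891 and 997 CPM in the serum-free libraries, a log2 fold change of -2.10 ± 0.14 (SE), adjusted p = 5.13e-08, with a narrow spread in both groups. On the list of YAP and TEAD targets, CCN2, connective tissue growth factor, lay at 17.7 to 29.3 CPM with EGF and cetuximab and 47.9 to 87.7 CPM in serum-free medium (log2 fold change -1.43, adjusted p = 0.000855).

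Squamous differentiation replaces the keratins of dividing cells with those of the upper layers. Of 12 tested mucosal keratins and differentiation genes, 4 were lower and 1 was higher, with a median log2 fold change of -0.41 (2 to 4 lower without single libraries, 2 without EGF+cetuximab replicate 4; none higher in 6 of 8 such fits). KRT4 and KRT13 pair into the keratin filaments of the suprabasal layers of non-cornifying epithelium such as the oesophagus. KRT4 had 103, 44.4, 45.4 and 29.3 CPM in the EGF+cetuximab libraries, against 226, 265, 233 and 273 CPM in the serum-free libraries, a log2 fold change of -2.24 ± 0.30 (SE), adjusted p = 0.000404. KRT13 had 797, 595, 675 and 425 CPM in the EGF+cetuximab libraries, against 1179, 1130.3, 1064 and 1245 CPM in the serum-free libraries, a log2 fold change of -0.96 ± 0.16 (SE), adjusted p = 0.000855. Neither gene overlapped between groups, and in both EGF+cetuximab replicate 1 was the highest of its group. KRT10, a keratin of cornifying epithelium, changed by -0.84 log2 units (adjusted p = 0.0129), a call lost without EGF+cetuximab replicate 4 (adjusted p = 0.0504). KRT8, a keratin of simple epithelium on the separate list of basal and stress keratins, went the other way and lay at 871 to 1369 CPM with EGF and cetuximab and 518 to 761 CPM in serum-free medium (log2 fold change 0.81, adjusted p = 0.00353). KRT6A, the stress keratin, was near the limit of detection at 1.27 to 6.50 CPM with EGF and cetuximab and 1.94 to 15.9 CPM in serum-free medium and overlapped between groups (adjusted p = 0.249).

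Against 5.78% and 5.33% of all tested genes, 2 of 19 tested lineage factors were higher and 4 lower. Without EGF+cetuximab replicate 1 these were 1 and 6, none was higher without serum-free replicate 3, and 1 was higher without EGF+cetuximab replicate 2 or 4 or serum-free replicate 1 or 2. ELF3, an epithelial ETS factor of differentiating layers, had 969, 921, 1009 and 677 CPM in the EGF+cetuximab libraries, against 1714, 2078, 1889.8 and 1849.8 CPM in the serum-free libraries, a log2 fold change of -1.14 ± 0.14 (SE), adjusted p = 7.02e-05. HES1, the classical Notch target, had 55.3, 169.6, 122 and 123 CPM in the EGF+cetuximab libraries, against 542, 436, 460.3 and 448 CPM in the serum-free libraries, a log2 fold change of -2.06 ± 0.25 (SE), adjusted p = 0.000151. SOX2, a factor of oesophageal basal cells, lay at 69.6 to 192 CPM with EGF and cetuximab and 21.7 to 70.97 CPM in serum-free medium, with overlapping groups and a log2 fold change of 1.57 ± 0.36 (SE), adjusted p = 0.0177; the call was lost without serum-free replicate 3 (adjusted p = 0.0571) and by limma. Of 10 tested membrane mucins and VTCN1, 4 were lower and none higher, and the same count held without each library in turn. MUC16, the mucin that carries the CA125 epitope, had 542, 194, 251 and 275 CPM in the EGF+cetuximab libraries, against 662, 884, 828 and 825 CPM in the serum-free libraries, a log2 fold change of -1.41 ± 0.25 (SE), adjusted p = 0.00332, with EGF+cetuximab replicate 1 nearest to the serum-free range. MUC20 and MUC15 changed by -1.51 (adjusted p = 0.000367) and -1.63 (adjusted p = 0.00297), and CEACAM6, a membrane-anchored adhesion molecule, by -1.43 (adjusted p = 0.000474).

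Metabolic genes moved in several groups. Of 30 tested genes of cholesterol and fatty acid synthesis, 12 were higher and 1 was lower, against the background of 5.78% and 5.33%, with a median log2 fold change of 0.65. The higher count ranged from 8 (without EGF+cetuximab replicate 2) to 16 (without EGF+cetuximab replicate 1). FASN, fatty acid synthase, had 477, 572, 413 and 622 CPM in the EGF+cetuximab libraries, against 179, 205, 195 and 185 CPM in the serum-free libraries, a log2 fold change of 1.38 ± 0.16 (SE), adjusted p = 1.97e-05. FDFT1, squalene synthase, and SQLE, squalene epoxidase, changed by 1.31 (adjusted p = 0.000261) and 1.35 (adjusted p = 0.00161). SREBF1, which encodes the transcription factor SREBP-1 of this pathway, was the member that fell, at 41.7 to 133 CPM with EGF and cetuximab and 187 to 288 CPM in serum-free medium, a log2 fold change of -1.58 ± 0.30 (SE), adjusted p = 0.00579.

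Glycolysis genes were split, with 3 higher and 2 lower of 17 tested, and 5 higher without EGF+cetuximab replicate 1. The members called higher were PKM, GAPDH and ENO1. PKM, pyruvate kinase, had 369, 531, 391 and 505 CPM in the EGF+cetuximab libraries, against 141, 106, 111 and 146 CPM in the serum-free libraries, a log2 fold change of 1.77 ± 0.17 (SE), adjusted p = 3.26e-06. GAPDH had 3474, 3711, 2532 and 2878 CPM in the EGF+cetuximab libraries, against 1486, 1278, 1382 and 1451 CPM in the serum-free libraries, a log2 fold change of 1.11 ± 0.14 (SE), adjusted p = 7.75e-05. ENO1, enolase, changed by 1.10 log2 units (adjusted p = 0.000193). The members called lower were HK2, a hexokinase, at 9.12 to 30.6 CPM with EGF and cetuximab and 57.9 to 77.9 CPM in serum-free medium (log2 fold change -1.82, adjusted p = 0.000474) and SLC2A1, the glucose transporter GLUT1, at 97.3 to 182 CPM with EGF and cetuximab and 224 to 289.7 CPM in serum-free medium (log2 fold change -0.84, adjusted p = 0.00564). The groups did not overlap in any of these genes.

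Transcripts of the mitochondrial genome took a smaller share of the reads. The 13 mitochondrially encoded mRNAs made up 3.00%, 5.28%, 4.38% and 7.26% of counts in the EGF+cetuximab libraries, against 8.62%, 9.31%, 10.4% and 8.75% in the serum-free libraries. The means were 4.98% ± 1.79 and 9.26% ± 0.80 (SD, n = 4 each), a difference of -4.28 percentage points, with a two-sided exact permutation p of 0.0286, the smallest that 4 against 4 libraries can give. Of the 13 mRNAs, 8 were called lower and none higher, with a median log2 fold change of -1.07. MT-ND4, a subunit of respiratory complex I, had 3573, 5269, 4951 and 7636 CPM in the EGF+cetuximab libraries, against 12195, 12779, 15534 and 12134 CPM in the serum-free libraries, a log2 fold change of -1.36 ± 0.19 (SE), adjusted p = 0.000158. MT-ND1 and MT-CYB, of complexes I and III, changed by -1.90 (adjusted p = 0.000376) and -1.43 (adjusted p = 0.000523). Of 31 nuclear OXPHOS genes, 3 were lower and none higher, against 5.33% and 5.78% of all tested genes. Without single libraries 0 to 3 were lower, with 0 without EGF+cetuximab replicate 3 or serum-free replicate 1 or 3. The mitochondrial share is also a measure of RNA quality and cell state, it moved with the groups, and its part in the other differences was not tested; with all mitochondrial genes removed before scaling, 668 genes were higher and 565 lower.

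**Figure D3:**
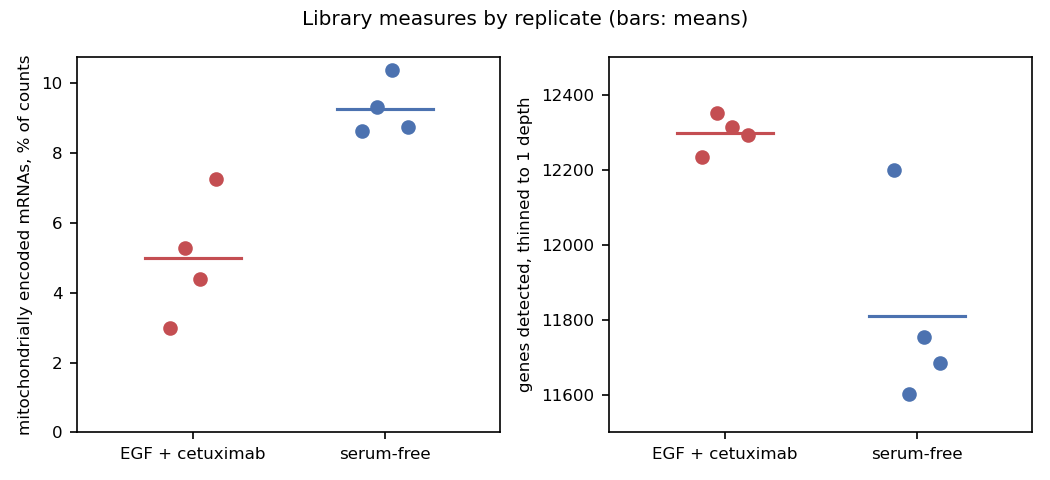
Mitochondrial mRNA share (percent of counts, left) and genes seen after thinning to equal depth (right, axis not from 0) in the 8 libraries; each point is 1 library and bars are means. The mitochondrial share spans 3.00% to 7.26% with EGF and cetuximab and 8.62% to 10.4% in serum-free medium.

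Cytoplasmic ribosomal protein genes leaned lower, with 9 lower and 1 higher of 63 tested and a median log2 fold change of -0.24, while factors that build ribosomes leaned higher, with 6 higher and none lower of 25 (median 0.47). Both counts rested on single libraries. The lower ribosomal protein count was 4 without EGF+cetuximab replicate 4 or serum-free replicate 1, 5 without serum-free replicate 2 or 3 and 13 without EGF+cetuximab replicate 1. The biogenesis count was 2 without EGF+cetuximab replicate 2 or serum-free replicate 2 or 3, and 3 without EGF+cetuximab replicate 1 or serum-free replicate 1. RPL13 lay at 757 to 1103 CPM with EGF and cetuximab and 1368 to 1440.1 CPM in serum-free medium (log2 fold change -0.64, adjusted p = 0.00638), and such genes have processed pseudogenes with which reads may be shared. BOP1, a nucleolar factor of the large subunit, lay at 36.5 to 49.5 CPM with EGF and cetuximab and 9.14 to 20.5 CPM in serum-free medium (log2 fold change 1.33, adjusted p = 0.00437). NCL, nucleolin, changed by 0.69 log2 units (adjusted p = 0.0126), a call lost without serum-free replicate 2 (adjusted p = 0.0540).

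Protein folding, lysosomal and iron-storage genes changed in part. Of 22 tested chaperone genes, 6 were higher and 1 was lower (2 higher without EGF+cetuximab replicate 4 or serum-free replicate 1 or 3, and 3 without EGF+cetuximab replicate 2 or serum-free replicate 2). HSPA5, the chaperone BiP, had 1242, 1096, 901 and 867 CPM in the EGF+cetuximab libraries, against 593, 645, 565 and 663 CPM in the serum-free libraries, a log2 fold change of 0.67 ± 0.14 (SE), adjusted p = 0.00501, and HSP90B1, its HSP90 relative GRP94, changed by 0.66 (adjusted p = 0.00696). Of 25 lysosomal genes, 5 were lower and 1 was higher, against 5.33% and 5.78% of all tested genes. The lower count was 8 without EGF+cetuximab replicate 1 and 3 without EGF+cetuximab replicate 2, 3 or 4 or serum-free replicate 2 or 4, and none was higher without EGF+cetuximab replicate 1 or 3 or serum-free replicate 2 or 3. CTSL, the protease cathepsin L, had 47.3, 50.2, 61.6 and 37.7 CPM in the EGF+cetuximab libraries, against 116, 129.5, 161 and 111 CPM in the serum-free libraries, a log2 fold change of -1.46 ± 0.19 (SE), adjusted p = 9.35e-05. FTH1 and FTL, the chains of ferritin, lay at 1158 to 2409 CPM with EGF and cetuximab and 3227 to 3799 CPM in serum-free medium and at 1369 to 1917 CPM with EGF and cetuximab and 2353 to 2776 CPM in serum-free medium, with log2 fold changes of -1.04 (adjusted p = 0.00154) and -0.77 (adjusted p = 0.00121), and share reads with many pseudogenes. SLC3A2, the heavy chain of amino acid exchangers, lay at 67.2 to 101 CPM with EGF and cetuximab and 167 to 221 CPM in serum-free medium (log2 fold change -1.34, adjusted p = 8.22e-05). Of 9 tested genes on the list of aryl hydrocarbon receptor targets, which also holds AHR and ARNT themselves, 3 were lower, CYP1A1 among them, and none was higher. The lower count was 1 without EGF+cetuximab replicate 3 or 4 or serum-free replicate 1 or 3.

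The MHC class I pathway shows peptides of the cell to T cells. Of 15 tested genes of the MHC class I pathway, 6 were lower and none higher, with a median log2 fold change of -0.59 (3 to 7 lower without single libraries, 3 without EGF+cetuximab replicate 4 or serum-free replicate 2 or 3). HLA-E, a ligand of natural killer cell receptors, had 283, 236, 248 and 207 CPM in the EGF+cetuximab libraries, against 343, 453, 443 and 445 CPM in the serum-free libraries, a log2 fold change of -0.86 ± 0.15 (SE), adjusted p = 0.00109. HLA-B had 405, 501, 639 and 388 CPM in the EGF+cetuximab libraries, against 767, 879, 782 and 758 CPM in the serum-free libraries, a log2 fold change of -0.78 ± 0.16 (SE), adjusted p = 0.00389. HLA genes are alike in sequence, so counts may be shared among them. TAP2, a subunit of the peptide transporter, changed by -1.15 log2 units (adjusted p = 0.0213), a call lost without EGF+cetuximab replicate 4 or serum-free replicate 2 or 3 (highest adjusted p 0.0695). Of 15 tested interferon-stimulated genes, IFIT2 alone was called, higher at 15.4 to 60.2 CPM with EGF and cetuximab and 10.4 to 13.2 CPM in serum-free medium (log2 fold change 1.40, adjusted p = 0.0246), and it was not called in 6 of 8 fits that left out a library (highest adjusted p 0.0969).

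The EGF+cetuximab libraries were also set against the Kyse30 cells labelled as photoconverted non-invasive after 9 nM EGF alone, and against unselected Kyse30 spheroids given 9 nM EGF and 100 nM AZD6244. Both comparisons share the EGF+cetuximab libraries with the one above and were fitted over the 16 libraries of the 4 Kyse30 groups. Against the non-invasive EGF cells, 1901 of 11904 genes were called (16%), 887 higher (7.45%) and 1014 lower (8.52%). MALAT1, a nuclear long RNA, took 6.27% and 9.63% of the reads of non-invasive replicates 1 and 3 but 1.68% and 1.91% in replicates 2 and 4, and without the first pair 1027 genes were called. The non-invasive cells differ from the EGF+cetuximab cells in selection as well as in antibody, and these cannot be told apart. Against the spheroids with the MEK inhibitor, which were unselected as well, 467 of 11904 genes were called (3.92%), 239 higher (2.01%) and 228 lower (1.92%). That count fell to 243 without MEK inhibitor replicate 3, to 283 without its replicate 2, to 295 without its replicate 1 and to 293 without EGF+cetuximab replicate 4.

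The order of the groups differed from gene to gene. IL1RL1 averaged 16.9 ± 8.83 CPM with EGF and cetuximab, 104 ± 9.85 CPM in the non-invasive EGF cells, 0.362 ± 0.205 CPM with the MEK inhibitor and 0.0917 ± 0.183 CPM in serum-free medium (SD, n = 4 each). Its log2 fold change was -2.65 ± 0.31 (SE), adjusted p = 1.89e-06 against the non-invasive cells and 5.34 ± 0.49 (SE), adjusted p = 2.82e-07 against the MEK inhibitor. CALB2 averaged 134 ± 50.7 CPM with EGF and cetuximab, 266 ± 87.2 CPM in the non-invasive cells, 13.2 ± 4.40 CPM with the MEK inhibitor and 17.9 ± 6.97 CPM in serum-free medium, so that the MEK inhibitor and serum-free levels lay within each other's spread and the other groups above them. AKAP12 averaged 385 ± 77.2 CPM with EGF and cetuximab, 228 ± 116 CPM in the non-invasive cells, 40.9 ± 9.23 CPM with the MEK inhibitor and 76.4 ± 34.3 CPM in serum-free medium; EGF+cetuximab did not differ from the non-invasive cells beyond the test (log2 fold change 0.71, adjusted p = 0.227).

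Among the genes lower with EGF and cetuximab than in serum-free medium, CYP1A1 averaged 92.6 ± 39.2 CPM with EGF and cetuximab, 19.3 ± 9.36 CPM in the non-invasive cells, 269.8 ± 92.6 CPM with the MEK inhibitor and 1155 ± 41.7 CPM in serum-free medium. The EGF+cetuximab level was above the non-invasive cells (log2 fold change 2.22 ± 0.34 (SE), adjusted p = 0.000367) and below the MEK inhibitor (-1.59 ± 0.32 (SE), adjusted p = 0.00778). KRT4 averaged 55.5 ± 32.6 CPM with EGF and cetuximab, 2.07 ± 1.32 CPM in the non-invasive cells, 66.9 ± 10.3 CPM with the MEK inhibitor and 249 ± 23.4 CPM in serum-free medium. It was higher with EGF and cetuximab than in the non-invasive cells (log2 fold change 4.63 ± 0.39 (SE), adjusted p = 8.74e-08) and did not differ beyond the test from the MEK inhibitor (log2 fold change -0.33, adjusted p = 0.640). TGFBI averaged 225 ± 24.4 CPM with EGF and cetuximab, 203 ± 25.6 CPM in the non-invasive cells, 251 ± 42.3 CPM with the MEK inhibitor and 921 ± 83.8 CPM in serum-free medium, with the 3 EGF groups close together. ID1 averaged 45.03 ± 8.95 CPM with EGF and cetuximab, 51.4 ± 43.3 CPM in the non-invasive cells, 217 ± 147 CPM with the MEK inhibitor and 286 ± 64.2 CPM in serum-free medium.

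**Figure D4:**
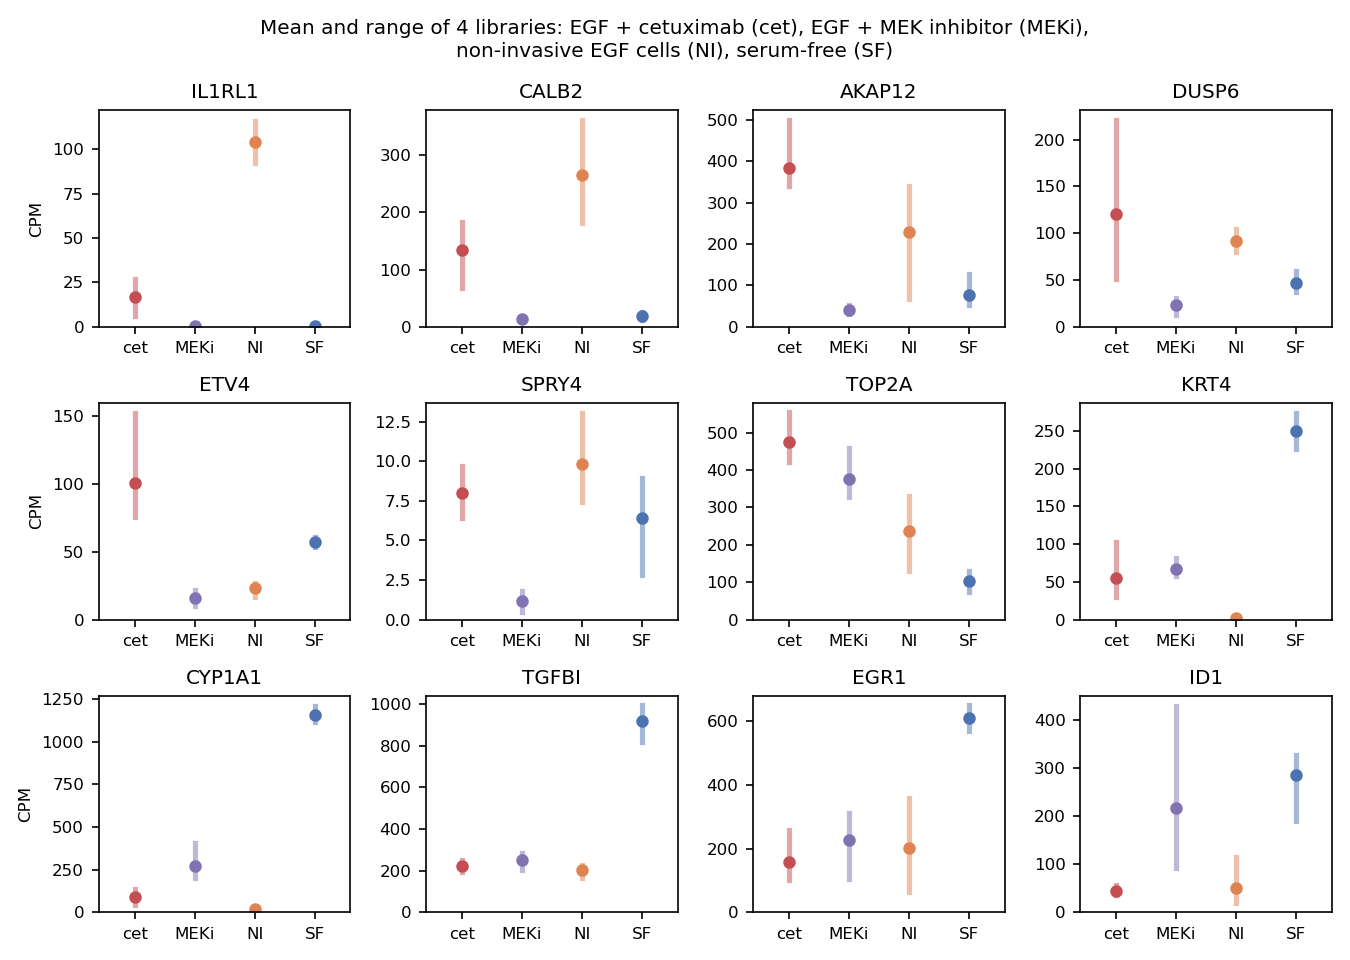
Levels of 12 genes in 4 Kyse30 groups, in CPM on linear axes that differ between panels; points are means and bars run from the lowest to the highest of 4 libraries. IL1RL1, CALB2 and AKAP12 had higher means with EGF and cetuximab than with the MEK inhibitor or in serum-free medium, and CYP1A1 and KRT4 are highest in serum-free medium.

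By gene list, ERK outputs and antigen presentation differed between the cetuximab and MEK inhibitor groups. Of 22 tested ERK outputs, 9 were higher with cetuximab than with the MEK inhibitor and none was lower, against 2.01% of all genes. DUSP6 was higher by 2.35 ± 0.35 (SE), adjusted p = 0.000730, ETV4 by 2.59 ± 0.24 (SE), adjusted p = 2.82e-07 and SPRY4 by 2.68 ± 0.50 (SE), adjusted p = 0.00215 on the log2 scale. Against the non-invasive EGF cells, 3 ERK outputs were higher and 7 lower, against 7.45% and 8.52% of all genes. Without non-invasive replicates 1 and 3 these counts were 2 and 6, and over all genes 450 were higher and 577 lower. All 15 MHC class I genes were tested against the MEK inhibitor, and 13 were lower with cetuximab and none higher. HLA-B changed by -1.85 ± 0.31 (SE), adjusted p = 0.00196, and TAP2 by -2.70 ± 0.31 (SE), adjusted p = 1.98e-05 on the log2 scale. CD74, the class II invariant chain, and GBP1, an interferon-induced GTPase, were among the 8 leading decreases against the MEK inhibitor. CD74 had no read in the EGF+cetuximab libraries and 8.30 to 32.9 CPM with the MEK inhibitor, and GBP1 lay at 1.03 to 6.33 CPM with EGF and cetuximab and 47.1 to 291 CPM with the MEK inhibitor. In serum-free medium CD74 was seen in a single library, at 0.367 CPM. GBP1 with EGF and cetuximab did not differ from serum-free medium beyond the test (log2 fold change 1.15, adjusted p = 0.478). With the MEK inhibitor, MHC class I genes had a median log2 fold change of 0.99 over serum-free medium. None of the 25 G2/M genes was called in either direction against the MEK inhibitor. Of 63 ribosomal protein genes, 13 were higher with cetuximab and none lower.

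EPHA7 and CTNND2 were among the 8 leading increases and KRT6A among the 8 leading decreases against the non-invasive EGF cells. EPHA7, an Eph receptor, averaged 31.9 ± 9.08 CPM with EGF and cetuximab, 0.110 ± 0.219 CPM in the non-invasive cells and 63.2 ± 13.8 CPM in serum-free medium. CTNND2, δ-catenin, averaged 58.5 ± 9.45 CPM, 2.44 ± 1.00 CPM and 61.5 ± 13.5 CPM in the same groups. KRT6A went the other way, with 2.94 ± 2.40 CPM with EGF and cetuximab, 75.96 ± 40.4 CPM in the non-invasive cells and 7.14 ± 6.06 CPM in serum-free medium. Of 16 listed hypoxia genes outside glycolysis, 11 were lower with cetuximab than in the non-invasive cells with all libraries and 11 without non-invasive replicates 1 and 3. Cholesterol and fatty acid synthesis had 14 lower members with all libraries and 16 without those replicates. DNA replication had 12 higher members with all libraries and 6 without them, and interferon-stimulated genes had 10 and 4 lower members. Over all genes, 887 were higher (7.45%) and 1014 lower (8.52%) with all libraries, and 450 were higher and 577 lower without those replicates. A smaller list count in the second fit therefore goes with fewer calls over all genes.

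FaDu, a squamous carcinoma line from the hypopharynx, received the same treatments, and the difference between the lines in the effect of EGF and cetuximab was tested as an interaction over 16 libraries, 4 per line and treatment. In FaDu, 4597 of 12420 genes were called (37%), 2322 higher (18.7%) and 2275 lower (18.3%). The effect differed between the lines for 2353 genes (18.9%), with 1284 more positive in Kyse30 (10.3%) and 1069 more negative (8.61%). FaDu changes and differences come from this fit and Kyse30 changes from the fit of 8 libraries, so they need not subtract exactly. The Kyse30 effect was the smaller on the G2/M list, where 20 of 25 members had a more negative difference and none a more positive one. For MKI67 the log2 fold change was 1.68 in Kyse30 and 4.24 in FaDu, a difference of -2.52 ± 0.33 (SE), adjusted p = 1.67e-05. For TOP2A it was 2.15 in Kyse30 and 3.95 in FaDu, a difference of -1.77 ± 0.26 (SE), adjusted p = 5.13e-05. Of 25 replication genes, 22 had a more negative difference in Kyse30.

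ERK outputs differed in the same way, with 13 of 21 more negative in Kyse30 and none more positive. ETV4 changed by 0.75 in Kyse30 and 5.95 in FaDu, a difference of -5.16 ± 0.48 (SE), adjusted p = 1.19e-07. PHLDA1 had log2 fold changes of 0.22 in Kyse30 and 2.93 in FaDu, a difference of -2.67 ± 0.28 (SE), adjusted p = 6.13e-07. DUSP6 changed by 1.303 and 3.45, a difference of -2.11 ± 0.52 (SE), adjusted p = 0.00818. CALB2 was higher in both lines, with a difference of -5.38 ± 0.64 (SE), adjusted p = 6.44e-06.

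Other genes went in opposite directions in the lines. PLAC8, a small cysteine-rich protein, lay at 11.6 to 19.7 CPM with EGF and cetuximab and 0 to 4.40 CPM in serum-free medium in Kyse30 (log2 fold change 3.03). In FaDu it averaged 0 ± 0 CPM with EGF and cetuximab and 2.57 ± 0.762 CPM in serum-free medium, and the fitted difference between the lines was 9.36 ± 1.26 (SE), adjusted p = 3.07e-05, a size that depends on the prior count because no FaDu library with EGF and cetuximab held a read of the gene. SOX2 rose in Kyse30 and fell in FaDu (log2 fold change -3.58), a difference of 5.18 ± 0.48 (SE), adjusted p = 6.13e-07. CLDN1 likewise changed by -2.21 in FaDu, a difference of 3.17 ± 0.36 (SE), adjusted p = 6.12e-06. HK2 fell in Kyse30 and changed by 2.27 in FaDu, a difference of -4.05 ± 0.63 (SE), adjusted p = 0.000208. Of 10 tested membrane mucins and VTCN1, 4 were called lower in Kyse30 and 7 in FaDu, and 6 had a more positive difference in Kyse30. MUC16 had a log2 fold change of -5.80 in FaDu and a difference of 4.42 ± 0.50 (SE), adjusted p = 2.38e-06. EGFR itself changed by -1.39 in FaDu, a difference of 0.67 ± 0.19 (SE), adjusted p = 0.0167. ID1 had a log2 fold change of -0.38 in FaDu that did not pass (adjusted p = 0.0796) and a difference of -2.31 ± 0.24 (SE), adjusted p = 6.67e-07. CYP1A1 was lower in both lines (log2 fold change -3.25 in FaDu), and its difference of -0.42 ± 0.44 (SE), adjusted p = 0.552 did not pass.

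**Figure D5:**
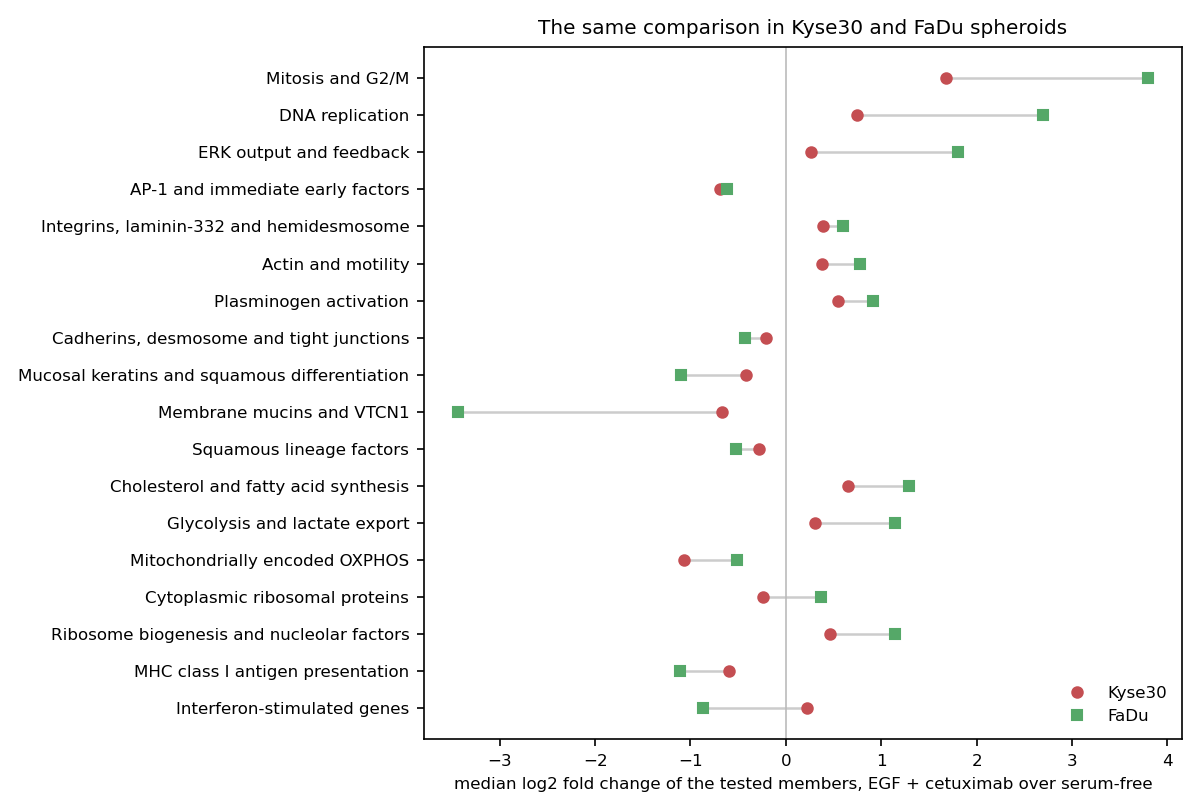
Log2 fold change, EGF+cetuximab over serum-free, as the median over the tested members of each of 18 gene lists, in Kyse30 (circles) and FaDu (squares). The G2/M list has a median of 1.68 in Kyse30 and 3.79 in FaDu, and the mucin list -0.67 and -3.43.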

How the data were processed

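The series holds 40 libraries of 3′ mRNA sequencing (Lexogen QuantSeq) of FaDu and Kyse30 spheroids, 4 for each of 5 treatments in each line. The authors deposited 1 table of raw counts per gene; per the submitters' processing notes, STAR, HTSeq and GRCh38 (hg38) were used, but neither their versions nor the gene annotation or strand option is given in the sources used here. It lists 12655 genes, chosen by an unstated rule, the smallest with 142 counts over all libraries. No molecular identifiers are named, so intervals cover counting error only. A gene and its antisense partner cannot be told apart, and 3′ counts were not compared between genes.

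Samples were grouped by the column names and labels. No label says that replicates came from separate cultures, so the spread behind each p-value may be technical. Genes passing filterByExpr were tested with edgeR 4.0.16 (TMM, robust quasi-likelihood fit) in R 4.3.3 with Benjamini-Hochberg adjustment over all genes tested. The SE of a log2 fold change was its size divided by the square root of F. The line difference was an interaction term over 16 libraries, and the comparisons with the other Kyse30 groups used 1 fit over 16 libraries. The mitochondrial share was compared by an exact permutation test. Alternatives were DESeq2 1.42.0, limma 3.58.1, other normalization, filters and sample sets, a replicate block and leaving out each library. The scripts were tested on simulated data.

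Genes were named by rule: the 15 leading called protein-coding genes per direction with a mean of at least 10 CPM and no overlap between groups, up to 4 called genes per direction of each of 44 lists, fixed pathway genes, and the 8 leading genes per direction of the other comparisons; not every gene the rule gives is described. PLK1, KIF11, MKI67 and HMMR fall outside it and were chosen after their values were seen. The members and lists were chosen with earlier results of these data known. Promoter sequences and gene positions come from RefSeq (GRCh38.p14), matched by symbol.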

Additional observations from a re-analysis of the deposited data

Results flagged for a closer look

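Of 226 groups of 4 libraries checked for the named genes, 16 held a library far from the other 3 by Dixon's criterion; chance alone marks about 1 in 20 such groups. In the EGF+cetuximab group these were ATP6V1B1 at 9.95 CPM (the others between 7.44 and 7.81 CPM), AREG at 795 CPM (the others between 265 and 355 CPM), SH3KBP1 at 83.2 CPM (the others between 98.8 and 101 CPM), ETV4 at 152 CPM (the others between 75.5 and 86.95 CPM), IER2 at 229.7 CPM (the others between 211 and 214 CPM), AKAP12 at 500.2 CPM (the others between 340.2 and 349.6 CPM) and KRT6A at 6.50 CPM (the others between 1.27 and 2.05 CPM). In the serum-free group these were MKI67 at 106 CPM (the others between 43.8 and 52.1 CPM), HLA-E at 343 CPM (the others between 443 and 453 CPM) and ID4 at 8.44 CPM (the others between 4.17 and 4.41 CPM). A single library held all the reads of its group for IL1RL1 at 0.367 CPM in serum-free cells, SLC1A6 at 1.10 CPM in serum-free cells, MMP1 at 0.697 CPM in EGF+cetuximab cells, MMP1 at 2.92 CPM in serum-free cells, INHBA at 0.417 CPM in serum-free cells and CD74 at 0.367 CPM in serum-free cells.

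The change with EGF and cetuximab differed between Kyse30 and FaDu, by the interaction test, for 58 of 109 named genes, against 18.9% of all 12420 tested genes. Named genes were chosen in part by the size of their changes, so this count is no result about them as a group. Differences are in log2 units, Kyse30 minus FaDu. Among EGFR and ERK pathway genes they were EGFR (0.67), ERBB3 (1.51), TGFA (-0.93), SH3KBP1 (0.94), DUSP6 (-2.11), ETV4 (-5.16), ETV5 (-2.28), PHLDA1 (-2.67), IER3 (-1.06), SPRY4 (-6.73), EGR1 (-1.40) and KLF4 (-1.47). Among cell cycle genes they were CENPF (-1.33), TOP2A (-1.77), PTTG1 (-1.74), PLK1 (-1.85), MKI67 (-2.52), HMMR (-1.71), MCM4 (-1.53), CDC6 (-2.73), CDT1 (-1.74) and RRM2 (-2.39). Adhesion, matrix and cytoskeleton genes gave COL17A1 (1.69), DST (2.03), LAMB3 (-0.86), PLAT (2.65), FSCN1 (-0.86), ACTN1 (-1.68), CLDN1 (3.17), CLDN7 (-1.69) and AKAP12 (-2.38). Keratins, lineage factors and mucins gave KRT4 (3.00), KRT13 (2.21), KRT8 (0.97), KRT6A (-4.69), ELF3 (0.71), SOX2 (5.18), ID1 (-2.31), MUC16 (4.42), MUC20 (2.16) and MUC15 (5.22). Metabolic, mitochondrial and ribosomal genes gave PKM (0.96), HK2 (-4.05), SREBF1 (-1.59), MT-ND1 (-1.60), MT-ND4 (-0.70), RPL13 (-0.58), SLC3A2 (-1.93) and CTSL (-1.16). Antigen presentation and interferon genes gave HLA-B (1.31), HLA-E (0.78), IFIT2 (2.30) and GBP1 (2.81). Other leading genes gave KCNMB4 (3.00), PLAC8 (9.36), CALB2 (-5.38), ATP6V1B1 (5.19) and TRPT1 (-3.12).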

How the results depend on the processing

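Each result was recomputed under the alternatives, of which the list counts and the fit without non-invasive replicates 1 and 3 were chosen after seeing the data. The counts of 648 higher and 598 lower genes stayed within 1.5 times under DESeq2 (863 and 818), limma, other normalization, other filters, without mitochondrial genes (668 and 565) and over the 12 unselected Kyse30 libraries (971 and 791). Over all 20 Kyse30 libraries they were 225 and 150, with 344 of the 1246 called genes kept, and over 19, without the invasive library of 463124 counts, 1053 and 775. Leaving out single libraries gave 397 to 633 higher and 371 to 673 lower genes. The line difference counted 1465 genes over all 40 libraries, against 2353, and 1842 to 2496 without single libraries. Against the non-invasive cells, 590 genes were called over all 20 libraries, 1027 without replicates 1 and 3 and 1372 to 1805 without single libraries. Against the MEK inhibitor, DESeq2 called 742 genes and the fit over all 20 libraries 141, with 243 to 467 without single libraries. The mitochondrial difference ranged between -5.04 and -3.62 percentage points without single libraries and was -10.3 over all listed mitochondrial genes. Without any one of the serum-free libraries its exact permutation p was 0.0571, and without any one of the EGF+cetuximab libraries 0.0286. The smallest p that 3 against 4 libraries can give is 0.0286, and the groups did not overlap in any of these sets. No call reversed: of 121 genes under 18 alternatives, 2064 results kept their side of the threshold, 104 lost the call and 1 gained it. A change of sign in a gene called under neither setting was not counted as a reversal. CTNND2, never called, ranged from -0.241 to 0.0153 log2 units. The cause of these changes was not tested.

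Same-numbered libraries did not deviate together (correlations of -0.0884, 0.00488, 0.0133 and -0.00133). With so few pairs this cannot decide whether a number marks a shared culture or day, and no label says so. With a replicate block 582 genes were higher and 550 lower, and the block gave 2025 genes for the line difference, 1850 against the non-invasive cells and 489 against the MEK inhibitor. ID2 and PLAT were not called with the block. At these depths a gene with few reads has a wide counting interval, as MMP1 and INHBA show, and both fell under the filter on low counts.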
